A study of Mus musculus with 10 samples.

Results

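Glycolysis splits glucose into pyruvate and yields ATP without oxygen, and lactate dehydrogenase turns pyruvate into lactate when it is not burned in mitochondria. When oxygen is low, the prolyl hydroxylases that mark HIF1A for destruction slow down, and the stabilised factor raises the transcription of glucose transporters, of nearly every glycolytic enzyme and of genes for vessel growth and mitochondrial clearance. Dividing progenitors of the early neural tube are known to rely on glycolysis before vessels have grown into the wall of the brain. The 35 genes described here encode the steps of that pathway and well-known parts of the low-oxygen response, out of 20405 genes measured by name. They were listed by symbol, and all 35 were measured. In order of role they are 2 glucose transporters, 7 genes of the upper steps, 8 of the lower steps, 5 that handle pyruvate and lactate, 3 of oxygen sensing and 10 targets of the response.

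The arrays hold RNA of the embryonic mouse cortex at stage E10.5, when the forebrain wall is mostly dividing progenitors. Cortices were dissected as a pair from each embryo, and the labels do not say whether an array holds 1 embryo or several. Wild-type C57BL/6 embryos gave 5 arrays, and embryos with 1 copy of the Mos2 allele of Magoh (heterozygous, also C57BL/6) gave 5, with no further allele or treatment labelled. Magoh's protein is part of the exon junction complex, the mark that splicing leaves on mRNA. Arrays are labelled as biological replicates, with no litter, sex or dissection time to set against the results. All levels are log2 RMA values, every difference is mutant minus wild type on that scale, and ± gives the SD of n = 5 arrays.

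Magoh was lower in all 5 mutant arrays (11.05 ± 0.09 in wild type, 10.21 ± 0.18 in mutants). The labelled tissue was checked with Emx2, Lhx2, Pax6, Sox2, Nes and Hes5, genes of cortical and neural progenitors, whose mean levels lay between 8.47 and 10.29 in both genotypes. Of these 6, 0 passed and 5 were lower in mutants. At an unadjusted p under 0.05, 3 (Emx2, Nes and Hes5) were lower, beside 4.68% of all genes. All 5 mutant arrays lay below wild type for Hes5 (limma adjusted p = 0.0757), as was the case for 1.39% of all genes. Array medians over all genes lay between 7.15 and 7.23, and the 95th percentile of the negative controls averaged 8.57. Of the 35 genes, 11 lay below 8.57 in both genotypes, so background can hide part of a change in them. In limma 117 of 20405 genes (0.573%) passed an adjusted p of 0.05, a count that became 66, 64 and 71 when wild-type array 1, 2 or 3 was left out, 185 when mutant array 1 was, and 59 when both arrays numbered 4 were.

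Mutant and wild-type cortex differed little across the pathway. Of the 35 genes, 1 rose in mutants (Slc2a3), 0 fell and 34 did not pass (limma, adjusted p under 0.05), where 0.26% of all genes rose and 0.314% fell. At an adjusted p under 0.1 there were 2, with Slc16a1 added, beside 1.1% of all genes. At an unadjusted p under 0.05, 3 were higher (Slc2a3, Slc16a1 and Slc2a1) and 1 was lower (Ldhb), against 4.57% and 4.68% of all genes. The differences ran from -0.17 to 0.44, with 24 above and 11 below 0. Their median was 0.02, beside 0.00 over all genes. The 95% intervals of the 35 differences, not adjusted for the number of genes, reached between 0.13 and 0.38 to either side. Passing the adjusted threshold took more than leaving out 0. Slc16a1, Slc2a1 and Ldhb had intervals without 0 and did not pass. Shifts of that size or smaller could therefore be missed with 5 arrays a genotype. In these whole-tissue samples, fewer cells of a type and less RNA per cell cannot be told apart.

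**Figure D1:**
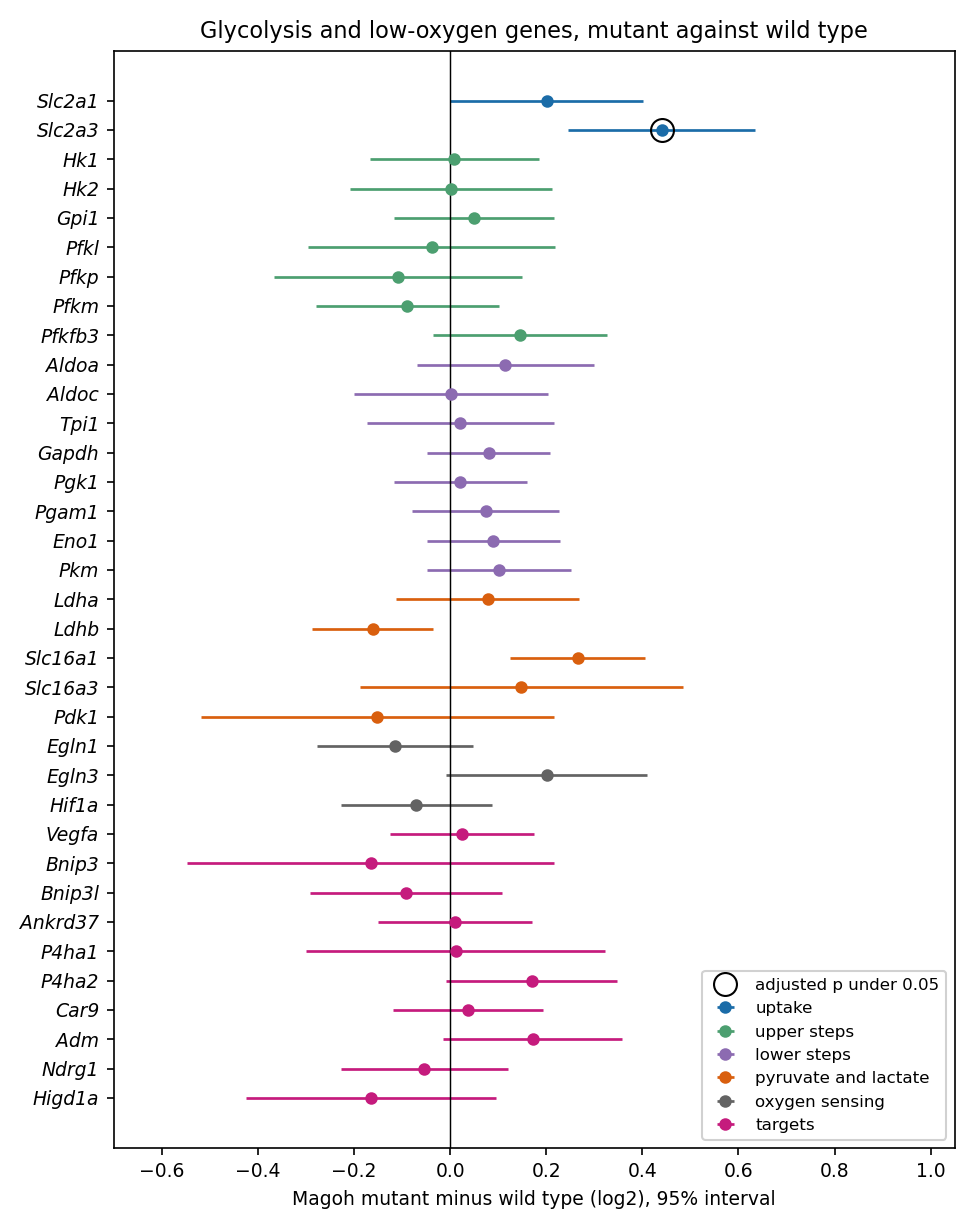
Mutant minus wild type (log2, x axis) for each of the 35 genes, in order of role; points are differences over 5 arrays a genotype and bars are 95% intervals from limma. Slc2a3, ringed, is the only gene of the 35 past an adjusted p of 0.05, and the intervals of Slc2a1, Slc16a1 and Ldhb also leave out 0.

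Slc2a3 had the largest difference of the 35 genes. It encodes GLUT3, the high-affinity transporter known from neurons and early embryos. It read 9.84, 9.98, 10.05, 10.15 and 9.97 on wild-type arrays 1 to 5 and 10.35, 10.20, 10.55, 10.73 and 10.36 on mutant arrays 1 to 5. All 5 mutant arrays lay above the highest wild-type array, as was the case for 1.43% of all genes. The rise was 1.36-fold, or 0.44 (SE 0.09, 95% interval 0.24 to 0.64, limma adjusted p = 0.0422). This result did not pass in 7 of 10 fits, those without array 1, 2, 3 or 5 of wild type and those without array 3, 4 or 5 of the mutants, with limma adjusted p from 0.0192 to 0.142 and differences from 0.37 to 0.50 over the 10 fits that left out 1 array. Without array 4 of both genotypes the difference was 0.41 (limma adjusted p = 0.0785).

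Slc2a1 encodes GLUT1, the transporter of the blood-brain barrier, red cells and most dividing cells. Its levels were 11.22, 11.35, 11.34, 11.65 and 11.45 in wild type and 11.71, 11.42, 11.43, 11.84 and 11.62 in mutants, so the genotypes overlapped and 2 mutant arrays exceeded the highest wild-type array. The difference was 0.20 (SE 0.09, limma adjusted p = 0.539).

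Markers of other cells moved beside these values. Of 8 neuron markers 0 rose and 6 fell in limma, and their mean level was 8.16 to 8.50 on wild-type and 7.39 to 7.99 on mutant arrays. Of 10 red cell markers 0 passed and 7 were higher at an unadjusted p under 0.05, with mean levels of 8.78 to 9.09 and 8.82 to 9.47. Of 9 endothelial markers 0 passed and 3 were higher at an unadjusted p under 0.05, with mean levels of 7.69 to 7.94 and 7.88 to 8.01. Macrophage and mesenchyme markers gave 0 calls among 7 and 8, with 3 and 2 lower at an unadjusted p under 0.05. Over all genes 0.26% rose and 0.314% fell in limma, and 4.57% and 4.68% did at an unadjusted p under 0.05. Below 8.57 in both genotypes lay 4 of the 8 neuron, 5 of the 10 red cell and 7 of the 9 endothelial markers. So did all 7 macrophage markers and 2 of the 8 mesenchyme markers. RMA levels have no 0, so no defining marker was listed at 0. Their part in the transporter values was not tested.

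**Figure D2:**
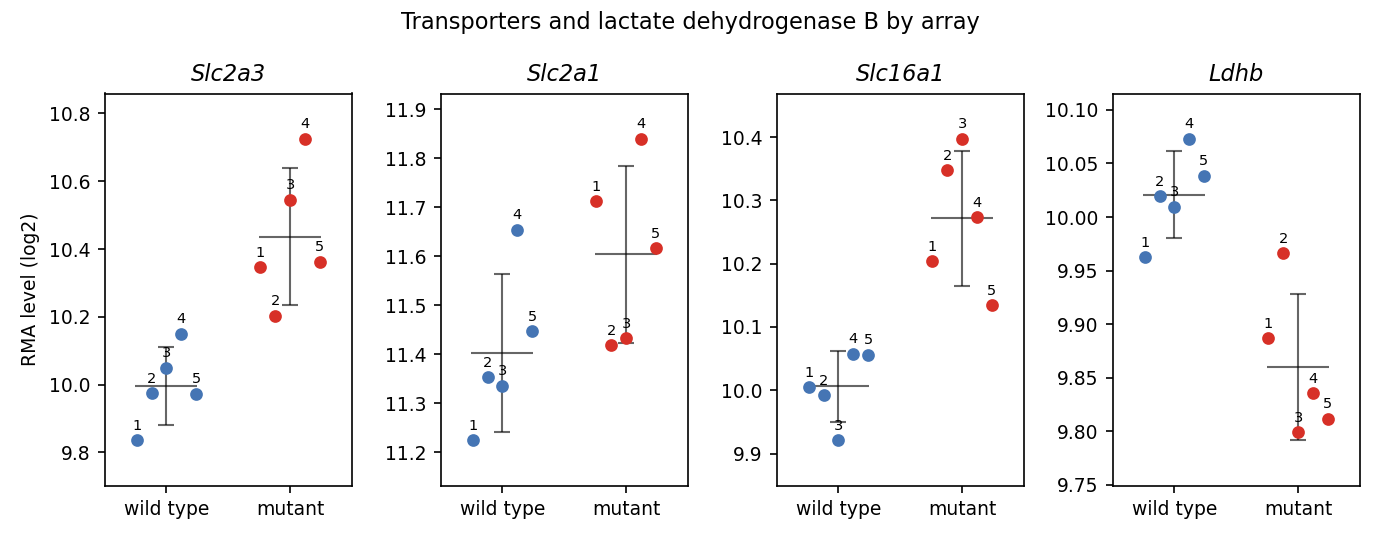
RMA level (log2, y axis, a scale of its own for each gene) of Slc2a3, Slc2a1, Slc16a1 and Ldhb on each array; numbers are array numbers within a genotype and bars are mean ± SD, n = 5. Mutant arrays lie above every wild-type array for Slc2a3 and Slc16a1, while Slc2a1 and Ldhb overlap between genotypes.

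Slc16a1, of the genes that handle lactate and pyruvate, had the next largest difference. It encodes MCT1, a carrier that moves lactate and pyruvate with protons in either direction. It measured 10.005, 9.99, 9.92, 10.06 and 10.06 in wild type and 10.20, 10.35, 10.40, 10.27 and 10.13 in mutants. No mutant array overlapped the wild-type arrays, yet the difference of 0.27 (SE 0.07, 95% interval 0.13 to 0.41) did not pass (limma adjusted p = 0.0973). It passed without mutant array 5 (limma adjusted p = 0.0483) and with arrays weighted by quality (0.32, limma adjusted p = 0.00678). In the other 9 fits that left out 1 array its limma adjusted p was 0.0629 to 0.289. Together Slc2a3 and Slc16a1 were the 2 genes of 35 whose mutant arrays all lay above the wild-type arrays, and 0 lay wholly below, where 1.43% and 1.39% of all genes did, or 2.82% in either direction.

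Ldhb encodes the H subunit of lactate dehydrogenase, common in tissues that use lactate as fuel. Wild-type arrays gave 9.96, 10.02, 10.01, 10.07 and 10.04, and mutant arrays gave 9.89, 9.97, 9.80, 9.84 and 9.81. Only mutant array 2 reached into the wild-type range. The difference was -0.16 (SE 0.06, limma adjusted p = 0.348), and a second probe set of the gene gave the same -0.16. Ldha, which encodes the M subunit that favours lactate formation, differed by 0.08 (SE 0.09, limma adjusted p = 0.867).

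The kinase and the second carrier of this group, Pdk1 and Slc16a3, differed by -0.15 (SE 0.17) and 0.15 (SE 0.16), with limma adjusted p of 0.867 and 0.854. Pdk1 shuts pyruvate out of the citric acid cycle by phosphorylating pyruvate dehydrogenase, and Slc16a3 encodes MCT4, a carrier of strongly glycolytic cells. Their intervals were among the widest of the 35, from -0.52 to 0.22 and from -0.19 to 0.48, and both genes had 1 array far above the others in each genotype, whose values follow below.

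Enzymes of the upper steps, which prime glucose with phosphate, gave 0 calls among 7 genes and differences from -0.11 to 0.15. The hexokinase genes Hk1 and Hk2, whose enzymes trap glucose in the cell, differed by 0.01 (SE 0.08) and 0.00 (SE 0.10), and both signs turned in other settings. Hk1 lay below 8.57 in both genotypes. Gpi1, the isomerase, differed by 0.05 (SE 0.08). Of the 3 phosphofructokinase subunits, which form the committed step, Pfkl differed by -0.04, Pfkp by -0.11 and Pfkm by -0.09, with SE of 0.12, 0.12 and 0.09. The sign of Pfkl turned in other settings. Pfkfb3 makes fructose 2,6-bisphosphate, the activator of that step. It read 8.30, 8.35, 8.35, 8.59 and 8.41 in wild type and 8.63, 8.42, 8.41, 8.82 and 8.45 in mutants, a difference of 0.15 (SE 0.09, limma adjusted p = 0.665) with both means below 8.57.

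Enzymes of the lower steps, from aldolase to pyruvate kinase, gave 0 calls among 8 genes with a narrow range of differences, from 0.00 to 0.11. All 8 values were above 0, though the signs of Aldoc, Tpi1 and Pgk1 turned when single arrays were left out, and that of Aldoc also with quantile normalization. The aldolase gene Aldoa differed by 0.11 (SE 0.09), Gapdh by 0.08 (SE 0.06) and Eno1, the enolase gene, by 0.09 (SE 0.07). The array lists 40 probe sets under Gapdh, with differences from 0.03 to 0.11, and the gene has many near-identical pseudogene copies that could share its signal. Pkm encodes pyruvate kinase, the last step. Its levels were 11.30, 11.41, 11.43, 11.52 and 11.44 in wild type and 11.46, 11.48, 11.40, 11.69 and 11.58 in mutants, a difference of 0.10 (SE 0.07, limma adjusted p = 0.736). Each value sums up the probes of a gene, so the splice forms of Pkm were not told apart. Pgam1, the mutase, and Pgk1, the kinase that returns the first ATP, differed by 0.07 and 0.02, and Tpi1, the triose isomerase, by 0.02. Tpi1 had the largest mutant SD of the 8, with levels of 11.75, 11.74, 11.56, 12.09 and 11.89, against 11.64, 11.78, 11.77, 11.98 and 11.77 in wild type. Aldoc, the aldolase form of brain, lay below 8.57 in both genotypes and differed by 0.00 (SE 0.09).

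The oxygen sensing genes gave 0 calls among 3. Hif1a, the factor itself, measured 10.10, 10.001, 10.14, 10.15 and 10.05 in wild type and 9.83, 10.13, 10.10, 10.14 and 9.89 in mutants, a difference of -0.07 (SE 0.07, limma adjusted p = 0.853). Mutant arrays 1 and 5 lay below every wild-type array and the other 3 within their range. HIF1A is controlled mainly through its protein, which these arrays do not measure. Egln1 and Egln3 encode the hydroxylases PHD2 and PHD3, and differed by -0.12 (SE 0.08) and 0.20 (SE 0.10), with limma adjusted p of 0.717 and 0.56. Egln3, itself a target of the response, read 6.92, 6.80, 6.81, 7.33 and 6.98 in wild type and 7.20, 6.95, 7.11, 7.27 and 7.29 in mutants, below 8.57 throughout. Wild-type array 4 was the highest of all 10, so the genotypes overlapped.

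Targets of the low-oxygen response gave 0 calls among 10, with a median difference of 0.01. Vegfa, the growth factor of vessels, differed by 0.03 (SE 0.07, 95% interval -0.12 to 0.17). The mitochondrial clearance genes Bnip3 and Bnip3l differed by -0.17 (SE 0.18) and -0.09 (SE 0.09), and the collagen prolyl hydroxylase genes P4ha1 and P4ha2 by 0.01 (SE 0.15) and 0.17 (SE 0.08). P4ha2 had the smallest p of the 10 targets (limma adjusted p = 0.565). Its levels were 6.94, 6.94, 7.002, 7.12 and 7.13 in wild type and 7.01, 7.19, 7.04, 7.39 and 7.36 in mutants, and 3 mutant arrays lay above every wild-type array. Adm, the vasodilator adrenomedullin, read 6.21, 6.39, 6.19, 6.16 and 6.28 in wild type and 6.26, 6.29, 6.35, 6.43 and 6.75 in mutants, where array 5 was highest. Its difference was 0.17 (SE 0.09, limma adjusted p = 0.589). The ankyrin repeat gene Ankrd37, Ndrg1, the carbonic anhydrase gene Car9 and Higd1a, a small mitochondrial protein gene, differed by 0.01, -0.05, 0.04 and -0.17, with SE of 0.08, 0.08, 0.07 and 0.12. Adm, P4ha2, Ankrd37, Ndrg1, Car9 and Higd1a lay below 8.57 in both genotypes. The signs of Vegfa, P4ha1, Ankrd37, Ndrg1 and Car9 turned in other settings, and second probe sets of Bnip3 and Higd1a gave the opposite sign. Car9 and Adm lay lowest, at 5.38 ± 0.11 and 6.25 ± 0.09 in wild type, where the medians of the negative controls were 5.34 to 5.82.

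The spread between arrays within a genotype was the larger pattern. The median SD of the 35 genes was 0.12 over wild-type arrays and 0.17 over mutant arrays, beside 0.09 and 0.13 over all genes. The SD was larger in mutants for 31 of the 35 (88.6%), beside 73.3% of all genes. In both genotypes array 4 stood out. It was the highest of its 5 arrays for 27 of 35 genes in wild type (77.1%, beside 25.8% of all genes). In mutants it was the highest for 26 (74.3%, beside 17.2% of all genes). For 22 genes (62.9%) it was the highest in both, beside 7.49% of all genes. Of all 20405 genes, 14840 lay below 8.57 in both genotypes, against 11 of the 35. The SDs and array shares over all genes, here and below, are therefore not matched to the 35 for level. Without array 4 the median SD of the 35 genes was 0.09 in wild type and 0.12 in mutants. Array 4 was picked after it was seen to be the highest for most of these genes. Leaving it out therefore lowers their SD largely by construction, and no SD over all genes without array 4 is given. The part of array 4 in the larger spread of the 35 genes was not tested. The labels give arrays of both genotypes the numbers 1 to 5 and do not say that a number marks a shared litter or day.

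The widest spread was in 4 genes, Bnip3, Pdk1, Slc16a3 and P4ha1, which were picked for their SD after the values were seen and are all known targets of HIF1A. Bnip3 encodes a protein of the outer mitochondrial membrane that marks mitochondria for removal. It read 8.47, 8.62, 8.34, 9.22 and 8.61 in wild type and 8.38, 8.15, 8.35, 9.21 and 8.34 in mutants. Array 4 exceeded the next array by 0.60 in wild type and by 0.84 in mutants, while the genotypes overlapped. A second probe set of Bnip3 was also highest on array 4 of both, at 8.05 and 8.44, although its difference between genotypes had the opposite sign, 0.12. Both means of that probe set, 7.82 and 7.95, lay below 8.57.

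Pdk1 followed the same pattern. Its levels were 8.65, 8.71, 8.78, 9.32 and 8.91 in wild type and 8.50, 8.47, 8.56, 9.51 and 8.58 in mutants. Array 4 led by 0.40 and 0.93, and the SD of mutants fell from 0.44 to 0.05 without it. That fall restates the lead of array 4, since the array farthest from the rest was left out. Slc16a3 gave 9.84, 9.91, 9.88, 10.65 and 10.10 in wild type and 10.21, 9.99, 10.14, 10.77 and 10.03 in mutants, with leads of 0.56 in each genotype. P4ha1 encodes the catalytic subunit that hydroxylates collagen. It measured 9.02, 9.16, 9.10, 9.55 and 9.20 in wild type and 8.78, 9.23, 9.26, 9.78 and 9.03 in mutants, where array 4 was highest and array 1 lowest.

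**Figure D3:**
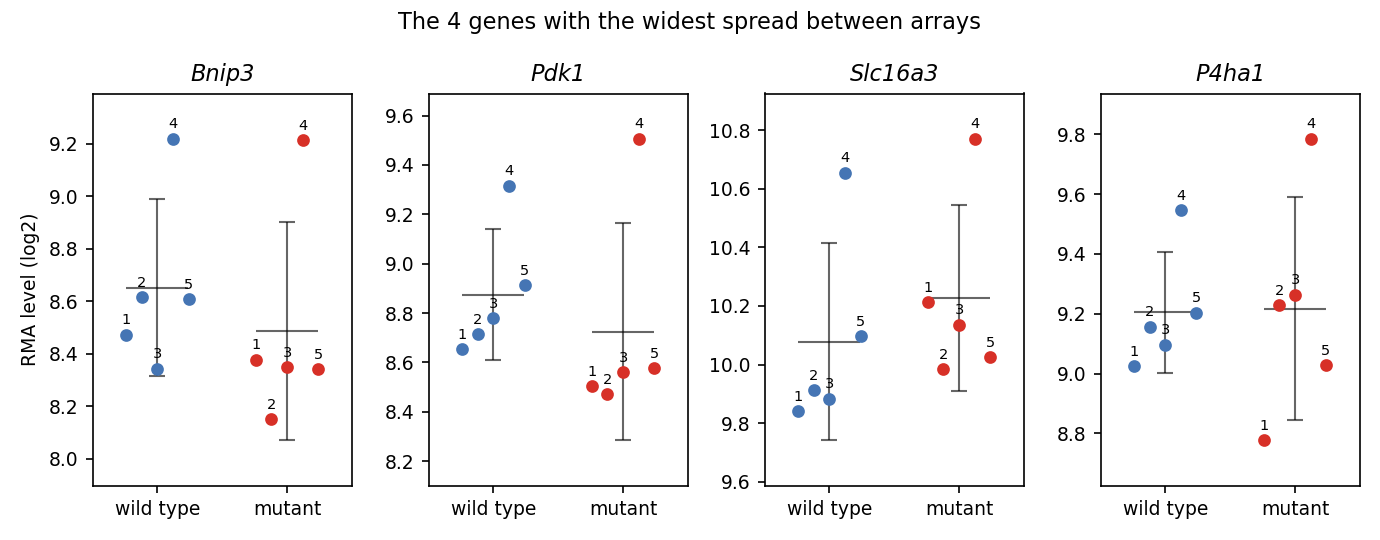
RMA level (log2, y axis, a scale of its own for each gene) of Bnip3, Pdk1, Slc16a3 and P4ha1 on each array; numbers are array numbers within a genotype and bars are mean ± SD, n = 5. Array 4 is the highest of its genotype in all 8 groups shown, by 0.34 or more.

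Promoters of the 4 genes with the widest spread are shown because array 4 was the highest of both genotypes for each of them. Whether these genes went together on the other arrays was not tested. That of Slc16a1 is shown because its mutant arrays all lay above the wild-type arrays, although it did not pass. Array 4 had no lead for Slc16a1 in mutants. HIF1A is known to bind the core letters ACGTG or GCGTG. The 250 bases before the annotated start were taken from RefSeq promoter tables of build GRCm38.p6, 5′ to 3′ along the gene's strand, and matches on either strand are in capitals. A palindrome CACGTG, which other factors also bind, counts as 2 matches.
Bnip3, chr7:138909507-138909756, minus strand: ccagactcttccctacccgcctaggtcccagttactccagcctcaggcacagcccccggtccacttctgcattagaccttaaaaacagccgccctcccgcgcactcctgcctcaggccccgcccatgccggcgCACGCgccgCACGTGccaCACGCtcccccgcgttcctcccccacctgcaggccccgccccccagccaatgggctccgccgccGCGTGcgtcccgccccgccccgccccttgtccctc
Pdk1, chr2:71872974-71873223, plus strand: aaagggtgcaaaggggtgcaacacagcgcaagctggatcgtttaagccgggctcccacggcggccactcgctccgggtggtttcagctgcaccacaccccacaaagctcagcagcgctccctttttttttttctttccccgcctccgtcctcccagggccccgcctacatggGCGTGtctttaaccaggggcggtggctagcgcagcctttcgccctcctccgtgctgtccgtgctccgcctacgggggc
Slc16a3, chr11:120948817-120949066, plus strand: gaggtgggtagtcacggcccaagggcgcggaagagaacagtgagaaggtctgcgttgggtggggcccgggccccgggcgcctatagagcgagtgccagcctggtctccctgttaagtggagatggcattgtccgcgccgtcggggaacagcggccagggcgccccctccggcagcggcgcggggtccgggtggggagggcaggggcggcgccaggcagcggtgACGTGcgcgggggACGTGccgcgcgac
P4ha1, chr10:59323046-59323295, plus strand: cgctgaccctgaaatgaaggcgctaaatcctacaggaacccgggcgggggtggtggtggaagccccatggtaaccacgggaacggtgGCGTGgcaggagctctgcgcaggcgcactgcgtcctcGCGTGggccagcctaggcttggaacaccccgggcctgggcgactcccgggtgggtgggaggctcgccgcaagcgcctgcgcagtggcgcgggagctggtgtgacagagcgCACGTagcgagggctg
Slc16a1, chr3:104638414-104638663, plus strand: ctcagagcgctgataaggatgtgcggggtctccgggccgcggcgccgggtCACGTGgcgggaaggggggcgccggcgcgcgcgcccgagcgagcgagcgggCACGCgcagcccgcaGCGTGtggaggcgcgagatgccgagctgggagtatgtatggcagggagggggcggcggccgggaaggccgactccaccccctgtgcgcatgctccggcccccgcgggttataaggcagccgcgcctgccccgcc
Bnip3 held 5 matches in this window, 35 to 117 bases before the start. Pdk1 held 1 match at 78 bases, and its second listed promoter held 0. Slc16a3 held 2 at 14 and 27 bases, P4ha1 held 3 and Slc16a1 held 4.

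Promoter sequences were listed for 32 of the 35 genes; Slc2a3, Bnip3l and Ndrg1 had no entry. Of the 32 genes, 30 had at least 1 match in a listed promoter (93.8%), beside 49.7% of 15961 measured genes with a promoter in the table. Gpi1 and Tpi1 held none. A gene with several listed promoters has more chances of a match. By promoter, either motif was in 82.6% of the 46 promoters of these genes and in 46.2% of all 19580. ACGTG was in 50.0% and 18.4%, and GCGTG was in 56.5% and 35.8%. The median share of G and C was 62.2% in the 46 promoters and 56.4% in all, and short motifs of these letters are more frequent where that share is high. The genes were listed for glycolysis and the low-oxygen response, which HIF1A is known to drive. A higher share of its motif may therefore follow from the choice of genes, and it is no result of these arrays. A match is a run of letters and no evidence of binding in these embryos.

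The phosphofructokinase genes shared the pattern in part. Pfkl read 10.39, 10.44, 10.47, 10.89 and 10.57 in wild type and 10.24, 10.46, 10.41, 10.97 and 10.496 in mutants. Pfkp read 6.75, 6.95, 6.96, 7.28 and 7.02, then 6.65, 6.80, 6.78, 7.38 and 6.82, at levels below 8.57. Array 4 was the highest of both genotypes for these subunit genes, but Pfkm, the muscle form, was highest on wild-type array 2 and mutant array 5.

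The 22 genes highest on array 4 in both genotypes came from every role. They were Slc2a1 and Slc2a3 of uptake, Hk1, Gpi1, Pfkl, Pfkp and Pfkfb3 of the upper steps, and Aldoa, Tpi1, Pgk1, Eno1 and Pkm of the lower steps. Ldha, Slc16a3 and Pdk1 were of the lactate and pyruvate group, Hif1a and Egln1 of the oxygen sensing group, and Vegfa, Bnip3, Bnip3l, Ankrd37 and P4ha1 were targets. Above the mean of the genotype, array 4 stood 0.05 to 0.58 in wild type and 0.08 to 0.78 in mutants. For Hif1a the lead over the next array was only 0.01 in both genotypes. Car9 was lowest on array 4 of both genotypes, at background levels. Gapdh, a usual reference gene, was within 0.04 of its genotype mean on array 4 of both, while Slc16a1 and Ldhb stood 0.05 above the mean in wild type and 0.00 and -0.02 from it in mutants.

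**Figure D4:**
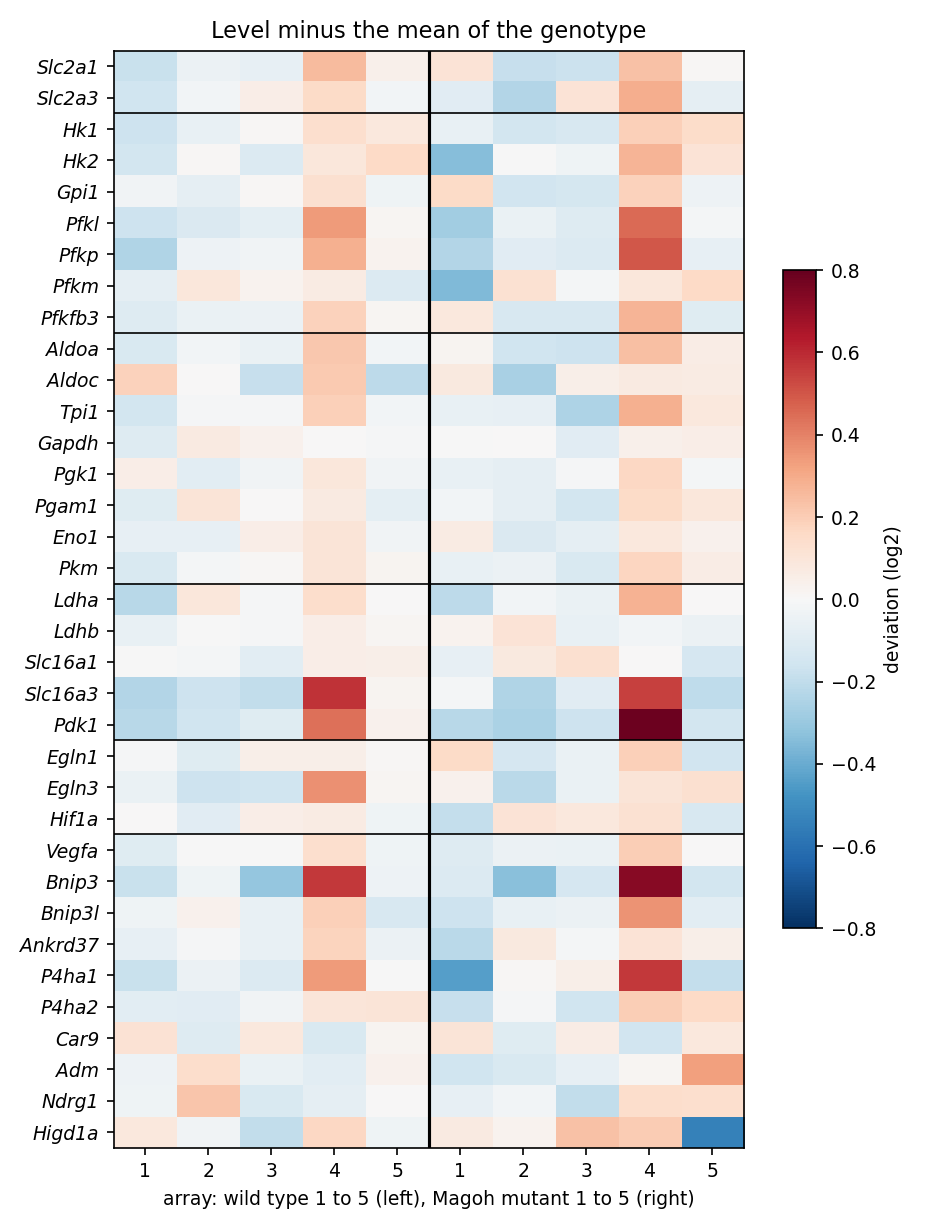
Level minus the mean of the genotype (log2, colour) for the 35 genes (rows, by role) on wild-type arrays 1 to 5 (left) and mutant arrays 1 to 5 (right). The column of array 4 is red for most genes in both genotypes, most strongly for Pdk1, Bnip3, Slc16a3 and P4ha1.

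Across the 35 genes, the deviations of wild-type array 4 and mutant array 4 from their genotype means went together (Pearson r = 0.83 across genes, which are not independent replicates). The other 4 same-numbered pairs gave r between -0.03 and 0.43 over the 35 genes, and array 4 gave 0.36 over all 20405 genes. Over the 35 genes, pairs of unlike number ran from -0.67 (wild-type array 1 with mutant array 4) to 0.51 (wild-type array 1 with mutant array 3). Other measures of array 4 are given beside this. Mesenchyme markers stood 0.14 above the wild-type mean and 0.12 above the mutant mean on array 4, but mutant array 5 was higher still, at 0.18. Red cell markers stood 0.13 and 0.04 above, while neuron markers were at -0.12 and 0.03 from the mean and endothelial markers at 0.00 in both. The 6 cortex markers stood at -0.09 and -0.08 from the mean, the lowest of the 5 arrays in each genotype. The 95th percentile of the negative controls was 8.37 on wild-type array 4, against 8.55 to 8.58 on the other wild-type arrays, and 8.47 on mutant array 4, within the mutant range of 8.46 to 8.86. Their part in the pattern was not tested.

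Without wild-type array 4 the median difference of the 35 genes was 0.06, without mutant array 4 it was -0.02, and without both it was 0.03. The number that passed was then 1, 0 and 0.

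Other genes of the same pathways were set beside the 35. None of these 62 passed in limma (0 in either direction), where 0.573% of all genes did. At an unadjusted p under 0.05 there were 4 above and 5 below wild type, against 4.57% and 4.68% of all genes. No excess is read from these counts. Smallest in p were the 2 subunits of the mitochondrial pyruvate carrier, which brings pyruvate to its oxidation. Mpc1 measured 7.07, 7.20, 7.10, 7.12 and 7.17 in wild type and 6.77, 6.83, 6.91, 7.10 and 6.84 in mutants, with 4 mutant arrays below the wild-type range. Mpc1 and Mpc2 differed by -0.24 (SE 0.07) and -0.19 (SE 0.07), with limma adjusted p of 0.177 and 0.291. The VEGF receptor gene Flt1, also an endothelial marker, differed by 0.20 and Mxi1, a target of the response, by -0.17, at limma adjusted p of 0.312 and 0.427. Each of the 4 had means under 8.57 in both genotypes.

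Pdha1, a subunit gene of pyruvate dehydrogenase, singled out here after its values were seen, depended on 1 array. It read 10.52, 10.83, 10.76, 10.78 and 10.73 in wild type and 10.09, 11.03, 11.004, 11.03 and 11.06 in mutants. Mutant array 1 was the lowest of all 10 and the other 4 mutant arrays were above every wild-type array. The difference was 0.12 (SE 0.15, limma adjusted p = 0.88) and was 0.31 without mutant array 1, where it passed (limma adjusted p = 0.0494). Without that array 185 of all genes passed, against 117 with all arrays. Over all genes its root mean square deviation from the genotype mean was 0.20, against 0.12 to 0.15 on the other mutant arrays. With the mean of the 2 Pdha1 probe sets the difference was 0.16 (SE 0.08, limma adjusted p = 0.606).

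Array 4 was the highest of both genotypes for 13 of these 62 genes (21.0%), beside 62.9% of the 35 and 7.49% of all genes. Among the 13, named after their values were seen, were Eno3, an enolase form, the stress-induced growth inhibitor Ddit4, the oxidoreductase gene Ero1a, Fam162a and the lysyl hydroxylase genes Plod1 and Plod2. Ero1a read 9.001 on wild-type array 4 and 8.68 to 8.74 on the other wild-type arrays, and 9.12 on mutant array 4 and 8.25 to 8.94 on the other mutant arrays. Ddit4 read 8.24 and 8.44 on array 4, above the next arrays at 8.15 and 8.37. Both Ddit4 and Plod1 had means below 8.57 in both genotypes. Array 4 was the lowest for 7 of the 62 genes in wild type and for 7 in mutants. From the wild-type and mutant means it stood at -0.15 and -0.02 for Pdhb and at -0.02 and -0.01 for Pfkfb4. For Epo these were 0.24 and -0.12. Pfkfb4 and Epo also had means below 8.57.

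**Figure D5:**
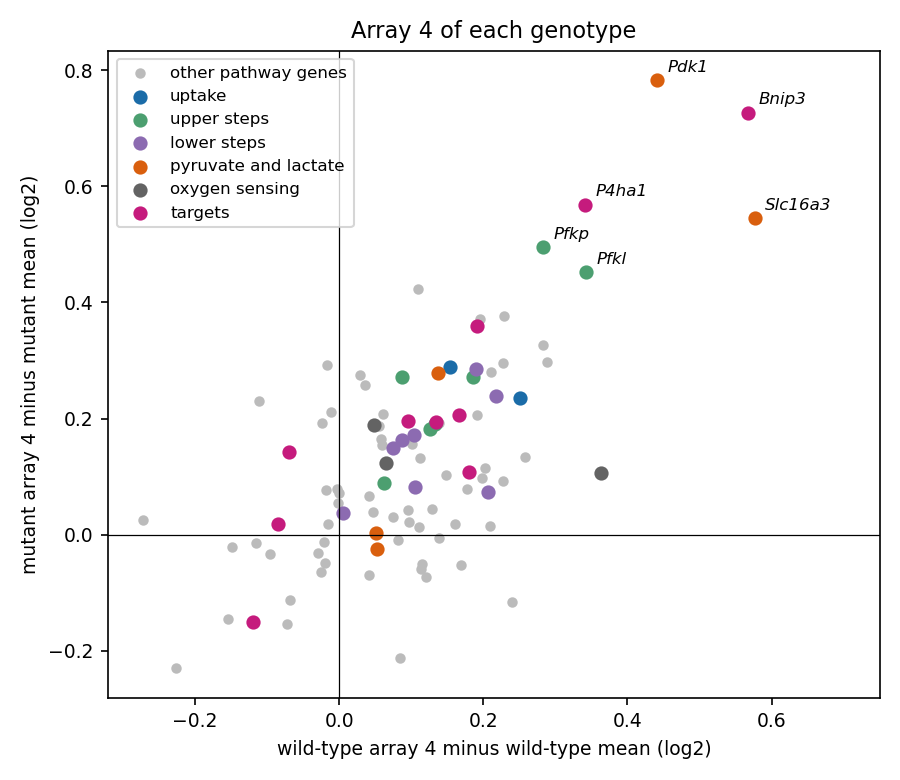
Deviation of array 4 from the mean of its genotype (log2), wild type on the x axis and mutant on the y axis, for the 35 genes by role and for the 62 other pathway genes in grey. Pdk1, Bnip3, Slc16a3, P4ha1, Pfkp and Pfkl lie farthest to the upper right, and Car9 lies below 0 on both axes.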

How the data were processed

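Total RNA of embryonic cortices was hybridised to Affymetrix whole-transcript arrays. Per the submitters' processing notes, the authors used RMA and Affymetrix Expression Console, of unstated version, to make the deposited log2 values. RMA evens out levels between arrays and tends to compress fold changes. The deposited annotation columns (other text: accession, Entrez number, title) tied 23322 probe sets to the RefSeq gene table of GRCm38.p6 by Entrez number and 465 by accession. Where a gene had several probe sets, the brightest on average stood for it, which left 20405 genes. The annotation columns were deposited together with 10 per-sample columns whose names match no label, and those 10 were left out.

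Mutant minus wild type was fitted with limma 3.58.1 in R 4.3.3 (lmFit, eBayes, no covariates) over all genes, with Benjamini-Hochberg adjustment over 20405 genes, and tested on simulated data. No filter was set on dim genes. All 35 genes are named; of 62 other pathway genes, those that passed and the 4 with the smallest p were to be named. Values by array are given for up to 4 genes of a role. The genes and lists were chosen with earlier results of these data known. Alternatives were other normalization, filters, probe set rules, variance models, weights, a replicate block, a looser threshold, leaving out each array, and, added after seeing the data, leaving out array 4 of both genotypes. As a guide to background, the negative controls' 95th percentile averaged 8.57. Precision is limited by the number of arrays, which carry no sequencing depth. 1 marker gene of the cortex list is not reported here.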

Additional observations from a re-analysis of the deposited data

Results flagged for a closer look

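In 72 groups of 5 arrays checked, 8 held an array that stood apart by Dixon's criterion, or 11.1%. The criterion flags about 1 in 20 independent groups by chance. These groups share the same 10 arrays and are not independent. No share over all genes is given, so no excess can be read from the count. Of the 8 arrays, 6 were number 4. Mutant array 4 stood above the other mutants for Pfkp, at 7.38 with the next at 6.82. It did so for Pgk1, at 12.24 with the next at 12.06, and for Pdk1, at 9.51 with the next at 8.58. The same array stood above the rest for Bnip3, at 9.21 with the next at 8.38, and for Bnip3l, at 11.06 with the next at 10.65. Wild-type array 4 stood above the other wild types for Ankrd37, at 7.16 with the next at 6.97, a level below the negative-control percentile.

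The lowest array stood apart in the other 2 groups, both at levels below that percentile. Mutant array 2 was low for Aldoc, at 6.89 with the next at 7.20, and mutant array 5 was low for Higd1a, at 6.76 with the next at 7.33.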

How the results depend on the processing

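Over the 35 genes and Magoh, 633 values under the alternatives kept direction and call, 48 turned in sign, 8 lost a call and 2, both of Slc16a1, gained one. With array weights 408 of all genes passed (175 higher and 233 lower) and 2 of the 35, and at an adjusted p of 0.1 these were 224 and 2. With every probe set tested 0 of the 35 genes passed (Slc2a3, limma adjusted p = 0.0551), and the median SD was 0.066 in wild type and 0.11 in mutants over 85 probe sets, of which 40 were Gapdh's. Without array 4 of both genotypes, chosen after seeing the data, 59 of all genes and 0 of the 35 passed. Leaving out 1 array at a time gave 64 to 185 of all genes, 0 to 1 of the 35, 0 to 1 other pathway genes, median differences of -0.02 to 0.06 and median SDs of 0.09 to 0.13 in wild type and 0.12 to 0.17 in mutants. Signs turned with array weights for Hk1 (-0.0288), Pfkl (0.0152), Aldoc (-0.0342) and Car9 (-0.0092), and with quantile normalization for Hk2 (-0.0034), Aldoc (-0.0045) and P4ha1 (-0.0009). They turned without array 4 of both genotypes for Hk1 (-0.0056), Hk2 (-0.0437), Tpi1 (-0.0029) and P4ha1 (-0.0457), and on the second probe set for Bnip3 (0.12) and Higd1a (0.0339). Without 1 array the ranges that crossed 0 were -0.0504 to 0.0666 for Aldoc, -0.0168 to 0.0642 for Ankrd37, -0.039 to 0.0459 for Hk1, -0.0656 to 0.088 for Hk2, -0.0892 to 0.0021 for Ndrg1, -0.13 to 0.12 for P4ha1, -0.15 to 0.0474 for Pfkl, -0.0192 to 0.0434 for Pgk1, -0.0503 to 0.0819 for Tpi1 and -0.0234 to 0.0588 for Vegfa. The cause of these turns was not tested.

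With the replicate number as a block 83 of all genes passed and 1 of the 35, Slc2a3 (limma adjusted p = 0.0187). Same-numbered arrays correlated at 0.01, -0.07, 0.17, 0.36 and 0.06 in their deviations over all genes, so the numbers were not taken to pair the arrays. Wild-type array 4 correlated best with mutant array 4, a hint from the data and not from the design.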
